A study of Mus musculus with 32 samples.

Results

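The recruited lipid-associated macrophage markers are 10 genes, Trem2, Tyrobp, Itgax, Cd9, Gpnmb, Lgals3, Spp1, Mmp12, Lpl and Ctsd, chosen by name, with earlier results of these data known. All 10 had at least 1 array probe that passed the filter on dim signals, so they make up 10 of the 21073 genes tested. Liver RNA from male C57/BL6 mice was hybridized to 32 arrays, with 4 biological replicates in each of 8 groups. The mice, 8 weeks old at the start in the study's methods, were fed a chow diet (C) or a diet deficient in methionine and choline (MCD) for 3 weeks, and for the last 2 of these weeks received subcutaneous vehicle or Fc-GLP-1 (groups C+Fc-GLP-1 on chow, M+Fc-GLP-1 on the deficient diet). Livers were sampled before a 70% partial hepatectomy (PH), or 2 weeks after PH with diet and treatment continued. The labels disagree on the drug, which source names call Fc-GLP-1, the name kept here, while sample descriptions and the growth notes have an agonist of both the receptor of GLP-1 and that of glucagon, given every other day at what the notes write as 4.4 mg/kg/day. For C+Fc-GLP-1 after PH the source names themselves give Fc-GLP-1 before PH and the agonist of both receptors after it. The study's methods describe Fc-GLP-1 at both times, at a dose in molar units that is not that of the labels. No label names a transgene or an individual mouse, and the livers after PH are by design those of mice that survived the operation. The sample titles of C, MCD and C+Fc-GLP-1 livers after PH repeat those before PH with a mark for the time added. They do not state that the mice are the same. The paper takes its values before PH from liver removed at the hepatectomy of the same groups. Whether arrays before and after PH share mice is therefore not settled, and they were compared here as unpaired.

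Lipid-associated macrophages arise when monocytes enter fat-laden tissue, take up lipid and cell debris, and switch on a shared program of receptors and lysosomal genes. At its centre stands TREM2, a surface receptor that binds lipids and lipoproteins and signals through the adaptor TYROBP (DAP12), with ITGAX (CD11c) and the tetraspanin CD9 as further surface markers. GPNMB, galectin-3 (Lgals3), osteopontin (Spp1), macrophage elastase (Mmp12), lipoprotein lipase (Lpl) and the lysosomal protease cathepsin D (Ctsd) are the secreted and lysosomal side of the program. Several of the genes are used by other cells too: Spp1 and Cd9 by bile duct cells, Itgax by dendritic cells, Tyrobp by most myeloid and natural killer cells, and Ctsd by every cell with lysosomes.

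Levels are on the log2 scale, background corrected and relative to the 75th percentile of the array's signals, so a difference of 1 is a doubling, and levels of different genes are not set against each other. A call is an adjusted p under 0.05 in a limma fit over all 8 groups, adjusted over the 21073 genes, and errors of differences are standard errors from that fit. These errors pool the spread of all 8 groups, and so are not the spread of the groups compared. The SD of Trem2, for instance, was 0.64 in C and 0.29 in MCD before PH and 2.20 in C after PH. The share of probes well above background ranged from 36.3% to 69.2% over the arrays. Hepatocyte genes such as Alb and Apoa1, the defining markers of the labelled tissue, were at mean list levels of 7.91 to 9.18 on the 32 arrays. The 8 groups lie on 5 slides: C and MCD before PH share a slide, as do both treated groups before PH and both treated groups after PH, whereas C and MCD after PH each have a slide of their own, read on another scanner. So MCD against C before PH, and M+Fc-GLP-1 against C+Fc-GLP-1 at either time, are comparisons within a slide. On each shared slide the chow arrays are in row 1 and the MCD arrays in row 2, so row and diet cannot be told apart. In the other 9 comparisons between groups the slide and the group cannot be told apart. In whole liver, more cells of a type and more RNA per cell cannot be told apart either.

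The promoters of the members that rose together under the MCD diet, and that of Ctsd as the bright member that did not, are shown to let a reader compare their sequences. They are RefSeq sequences of the GRCm38.p6 build, the 250 bases before the annotated start, 5′ to 3′ on the strand of the gene, and 8 of the 10 members have an entry there (not Lpl and Tyrobp). Capitals mark matches on either strand to the letters TGANTCA (AP-1), GAGGAA (the PU.1 core), CACGTG (E-box) and CATGTG (M-box core), none of which overlap here. The window of Trem2 is chr17:48346151-48346400 on the plus strand, that of Itgax chr7:128129300-128129549 (plus), those of the 2 annotated starts of Mmp12 chr9:7344147-7344396 and chr9:7347124-7347373 (plus), that of Gpnmb chr6:49036268-49036517 (plus), that of Lgals3 chr14:47373610-47373859 (plus), and that of Ctsd chr7:142387828-142388077 (minus).
Trem2: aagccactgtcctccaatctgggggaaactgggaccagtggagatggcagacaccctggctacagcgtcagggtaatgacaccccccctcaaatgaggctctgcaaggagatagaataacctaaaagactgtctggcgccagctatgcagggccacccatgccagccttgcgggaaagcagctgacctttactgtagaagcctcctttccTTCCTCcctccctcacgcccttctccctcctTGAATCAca
Itgax: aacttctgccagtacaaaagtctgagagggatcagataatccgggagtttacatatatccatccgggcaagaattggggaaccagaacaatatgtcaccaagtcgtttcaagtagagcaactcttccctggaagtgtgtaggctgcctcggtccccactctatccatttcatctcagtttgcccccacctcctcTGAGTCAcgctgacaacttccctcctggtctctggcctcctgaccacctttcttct
Mmp12 start 1: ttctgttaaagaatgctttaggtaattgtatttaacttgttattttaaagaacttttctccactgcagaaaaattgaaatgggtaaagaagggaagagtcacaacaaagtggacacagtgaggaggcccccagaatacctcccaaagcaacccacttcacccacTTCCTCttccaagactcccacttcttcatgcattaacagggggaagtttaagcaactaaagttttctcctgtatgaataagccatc
Mmp12 start 2: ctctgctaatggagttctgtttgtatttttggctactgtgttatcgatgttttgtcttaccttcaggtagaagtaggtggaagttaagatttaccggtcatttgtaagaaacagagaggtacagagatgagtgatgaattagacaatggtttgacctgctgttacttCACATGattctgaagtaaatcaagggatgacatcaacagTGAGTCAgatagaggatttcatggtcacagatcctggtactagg
Gpnmb: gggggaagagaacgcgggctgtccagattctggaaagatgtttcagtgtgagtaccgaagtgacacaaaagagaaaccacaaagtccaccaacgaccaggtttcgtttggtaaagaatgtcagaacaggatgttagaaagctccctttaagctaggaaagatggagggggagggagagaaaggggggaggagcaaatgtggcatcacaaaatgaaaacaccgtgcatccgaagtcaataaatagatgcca
Lgals3: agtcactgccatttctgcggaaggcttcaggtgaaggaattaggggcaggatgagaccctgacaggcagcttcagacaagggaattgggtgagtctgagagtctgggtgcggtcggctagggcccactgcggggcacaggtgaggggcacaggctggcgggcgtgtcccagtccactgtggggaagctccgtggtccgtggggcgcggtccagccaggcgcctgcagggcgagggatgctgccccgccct
Ctsd: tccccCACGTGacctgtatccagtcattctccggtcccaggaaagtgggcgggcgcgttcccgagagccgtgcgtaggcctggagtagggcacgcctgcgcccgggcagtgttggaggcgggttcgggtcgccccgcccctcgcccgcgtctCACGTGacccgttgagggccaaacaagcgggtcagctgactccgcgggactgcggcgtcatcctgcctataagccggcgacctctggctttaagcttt
An AP-1 match lay 9 bases before the start of Trem2, 56 before that of Itgax and 44 before the second start of Mmp12. These are 3 of the 10 windows of members, and 6.75% of 32851 mouse promoters of this length hold the motif. The PU.1 core was in 3 of the 10 windows (Trem2, the first start of Mmp12 and 1 start of Spp1) against 23.3% of all. The E-box was in 1 window, that of Ctsd, which holds it at 245 and 98 bases before the start, against 6.02% of all, and the M-box core was in 2 (Cd9 and the second start of Mmp12) against 12.3% of all. Gpnmb and Lgals3 had no match to these letters in the window. A match is a run of letters, not a measured site. On the same build the members without a printed window lie at chr8:68880555-68906932 (Lpl), chr7:30413782-30417582 (Tyrobp), chr6:125460266-125494760 (Cd9) and chr5:104435111-104441053 (Spp1), and the exons that the probes match were not analysed here.

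Before PH, the MCD diet raised 6 of the 10 markers in untreated livers, which compares with 12.2% of all genes called higher. Gpnmb, Trem2, Mmp12, Lgals3, Itgax and Tyrobp rose, from 6.47-fold for Tyrobp to 25.5-fold for Trem2, with Gpnmb at least 19.7-fold higher. In each of the 6 every MCD liver lay above every C liver. How many of all genes lay apart in this way was not counted in any comparison. Gpnmb and Mmp12 passed the filter on dim signals only through the untreated MCD groups before and after PH, where they are high. Counts of markers called against those groups are therefore not independent of the filter. Cd9, Spp1, Lpl and Ctsd were not called, with log2 fold changes between 0.28 and 0.80. The median over the 10 markers was 2.82 on the log2 scale, against -0.07 over all genes.

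**Figure D1:**
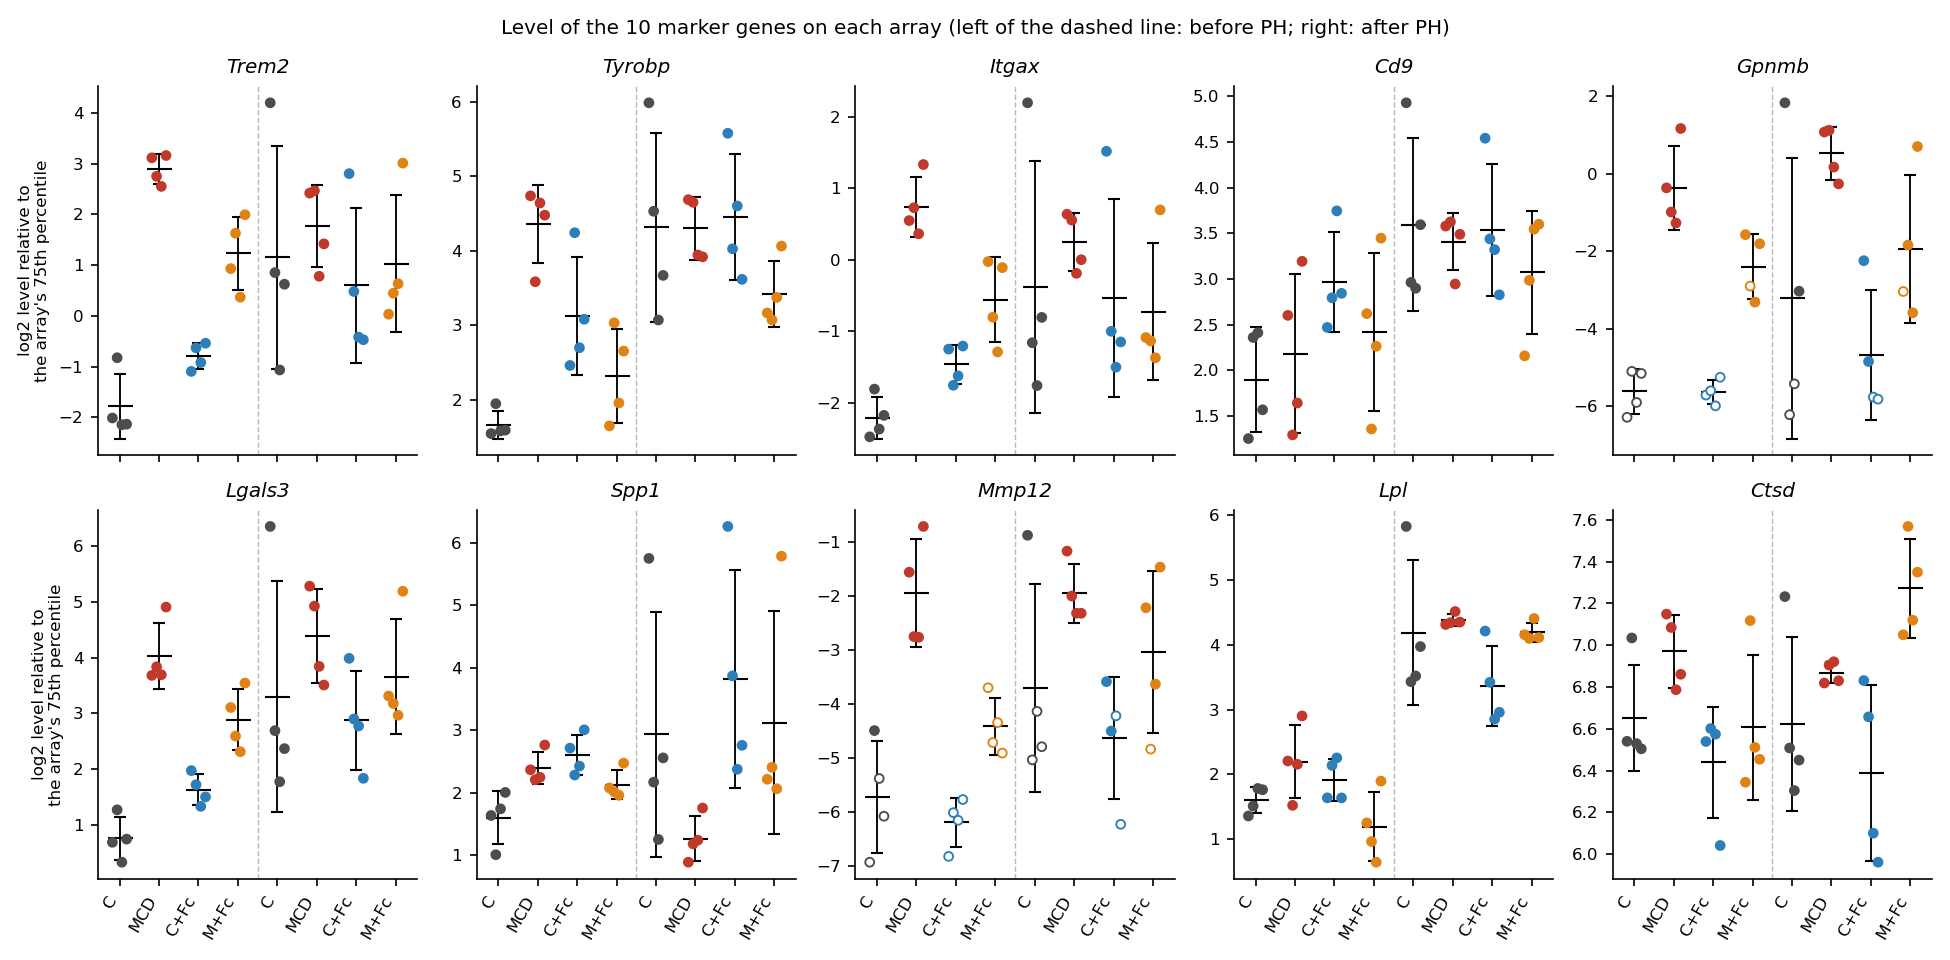
Log2 level of each marker relative to the array's 75th percentile (y axis) for the 8 groups (x axis), with 1 point per array, horizontal bars for the mean and whiskers for the SD over 4 arrays; open points were not well above background, and Fc stands for Fc-GLP-1. In the 6 markers called higher, all MCD points before PH sit above all C points, and in C after PH replicate 1 is the highest point in all 10 panels.

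The receptor gene Trem2 had the smallest adjusted p of the 6. The level of Trem2 was -2.01, -0.83, -2.15 and -2.14 in C livers and 3.11, 2.75, 2.55 and 3.16 in MCD livers, a difference of 4.67 ± 0.76 on the log2 scale (adjusted p = 5.84e-05). C livers were all below 0 and MCD livers all above 2.5. Its adaptor Tyrobp was at 1.55, 1.95, 1.58 and 1.59 in C and 4.74, 3.58, 4.64 and 4.48 in MCD livers, a difference of 2.69 ± 0.48 (adjusted p = 0.000149). Itgax, the CD11c integrin chain, was at -2.48, -1.81, -2.37 and -2.18 in C and 0.55, 0.73, 0.36 and 1.33 in MCD livers, higher by 2.95 ± 0.61 (adjusted p = 0.000773). Receptor, adaptor and integrin thus each separated the diets with no overlap. Cd9, the tetraspanin, was at 1.25, 2.36, 2.41 and 1.57 in C and 2.60, 1.29, 1.64 and 3.19 in MCD livers, which overlap, and the difference of 0.28 ± 0.48 was not called (adjusted p = 0.694, 95% confidence interval from -0.69 to 1.26).

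Among the secreted and lysosomal members, Gpnmb, a transmembrane glycoprotein of lysosomes and phagosomes, was well above background in MCD but not in C livers before PH. Its level was -6.28, -5.10, -5.90 and -5.15 in C livers, where no array was well above background, and -0.37, -0.99, -1.27 and 1.16 in MCD livers, where all 4 were. The difference was 5.24 ± 1.09 (adjusted p = 0.000819), and against the background of the C arrays it is at least 19.7-fold higher. Mmp12, the elastase of macrophages, was well above background in 1 of 4 C and 4 of 4 MCD livers, at -6.93, -4.49, -5.38 and -6.08 and -1.55, -2.75, -2.76 and -0.70, a difference of 3.78 ± 0.74 (adjusted p = 0.00044). Lgals3, which encodes a lectin that binds sugar chains on damaged membranes, was well above background on all 32 arrays. It was at 0.68, 1.27, 0.33 and 0.74 in C and 3.68, 3.84, 3.69 and 4.91 in MCD livers, higher by 3.28 ± 0.65 (adjusted p = 0.000509).

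The other secreted and lysosomal members were not called. Spp1, the cytokine osteopontin, was at 1.64, 1.01, 1.74 and 2.01 in C and 2.37, 2.21, 2.25 and 2.76 in MCD livers, where every MCD value exceeded every C value, but the difference of 0.80 ± 0.75 was not called (adjusted p = 0.457). Its SD was 0.42 in C and 0.25 in MCD before PH, and 0.36 to 1.96 in the groups after PH, which share in that error. Lpl, which frees fatty acids from lipoproteins, differed by 0.59 ± 0.38 (adjusted p = 0.25), with overlapping groups. The protease gene Ctsd was at 6.54, 7.04, 6.53 and 6.50 in C and 7.15, 7.09, 6.79 and 6.86 in MCD livers, which also overlap, and differed by 0.32 ± 0.23 (adjusted p = 0.309). All 6 markers were called without each of the 8 arrays in turn. With normexp background correction and quantile normalization, which adds an offset to dim signals, Trem2, Gpnmb, Itgax and Mmp12 were higher by 3.28, 2.37, 1.89 and 1.31, and still called.

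Fc-GLP-1 on chow called 0 of the 10 markers before PH by limma, against 2.3% of all genes called in either direction, and 2 were under an unadjusted p of 0.05. Those were Tyrobp and Cd9. Tyrobp was at 2.46, 4.24, 2.70 and 3.08 in C+Fc-GLP-1 livers, all above the C livers, a difference of 1.45 ± 0.48 (adjusted p = 0.0944). It was called at 1.68, 1.75 and 1.71 with normexp and quantile normalization, centring on the array median and the authors' normalized values (adjusted p = 0.0312, 0.045 and 0.0301). Cd9 was at 2.47, 2.79, 3.74 and 2.84, also above all C livers, with a difference of 1.06 ± 0.48 (adjusted p = 0.229). Itgax, Spp1 and Lgals3 also lay above all C livers, which are on another slide, without being called. How many of all genes lay apart between these slides was not counted, so the separation is not read as particular to the markers. The median over the markers was 0.81, against -0.01 over all genes. Trem2, at -1.10, -0.63, -0.92 and -0.54, differed from C by 0.98 ± 0.76 (adjusted p = 0.512), and Gpnmb was well above background in no liver of either chow group.

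In mice on the MCD diet before PH, 2 of the 10 markers, Tyrobp and Mmp12, were called lower with Fc-GLP-1 than without, against 2.99% of all genes called lower. These groups lie on different slides, so drug and slide cannot be told apart. The 75th percentile of the array's signals was 226 to 288 in M+Fc-GLP-1 and 367 to 469 in MCD livers. Tyrobp was at 1.65, 3.03, 1.96 and 2.65 in M+Fc-GLP-1 livers, all below the MCD livers, and fell by 2.04 ± 0.48 in log2 level (adjusted p = 0.0112), or 4.11-fold. Mmp12 was well above background in no M+Fc-GLP-1 liver, at -3.70, -4.71, -4.34 and -4.91, which makes it at least 3.55-fold lower than in MCD livers (log2 fold change -2.47 ± 0.74, adjusted p = 0.0401). The Mmp12 call is near the threshold: it was lost without replicate 1 or 4 of MCD, and without each of the 4 M+Fc-GLP-1 arrays in turn (adjusted p = 0.0519 to 0.12), and with the authors' normalized values (log2 fold change -0.85, adjusted p = 0.104). The median over the markers was -1.22, against 0.06 over all genes.

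**Figure D2:**
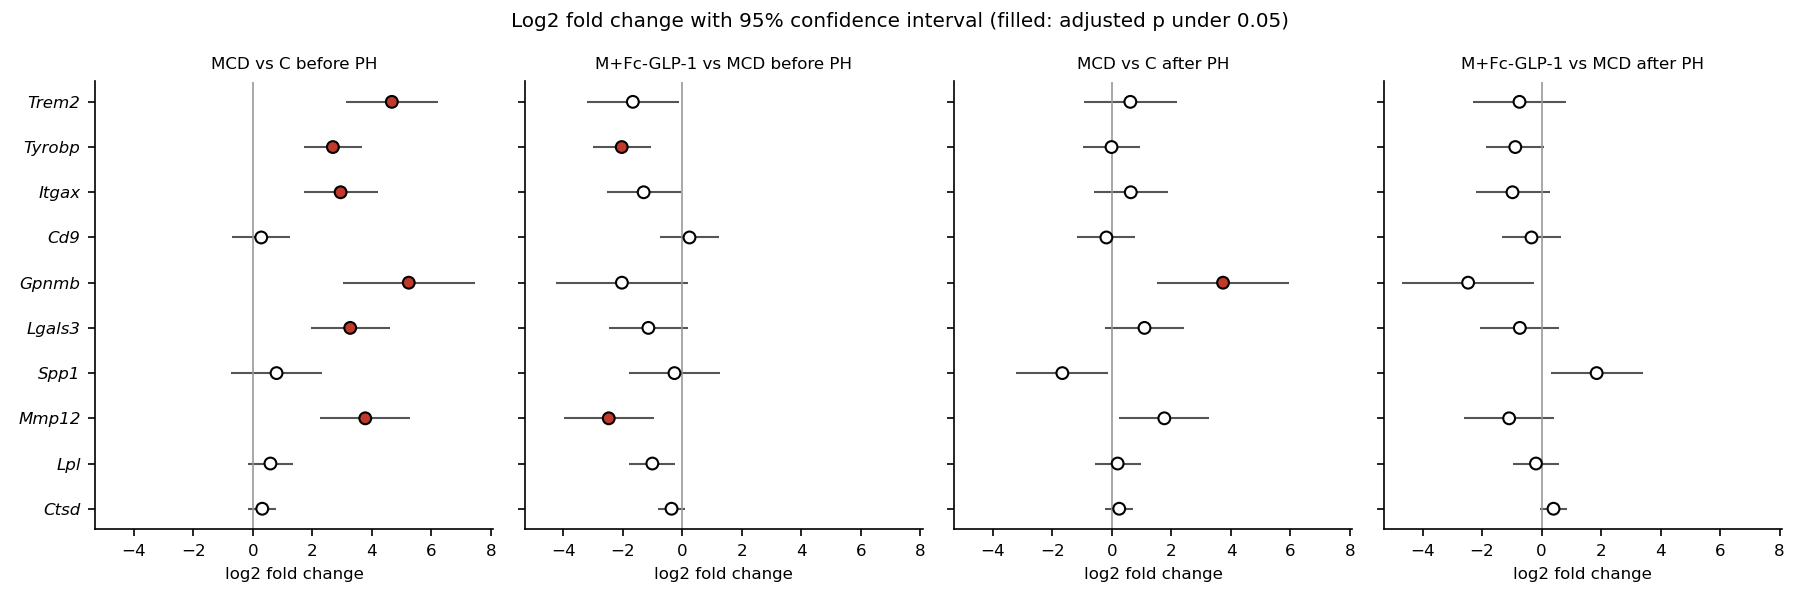
Log2 fold change of the 10 markers (x axis) with its 95% confidence interval in 4 comparisons, filled where the adjusted p was under 0.05. MCD against C before PH has 6 filled points, M+Fc-GLP-1 against MCD before PH has 2, MCD against C after PH has 1 (Gpnmb) and M+Fc-GLP-1 against MCD after PH has 0.

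Under the drug, Trem2, Itgax, Gpnmb and Lgals3 had means between those of C and MCD livers, without passing the test. Trem2 was at 0.93, 1.63, 0.37 and 1.99 in M+Fc-GLP-1 livers, below every MCD liver and above every C liver, with a log2 fold change against MCD of -1.66 ± 0.76 (adjusted p = 0.179). Itgax was at -0.03, -0.80, -1.29 and -0.11, also with no overlap with MCD, at -1.30 ± 0.61 (adjusted p = 0.19). Gpnmb was well above background in 3 of 4 livers, at -1.57, -2.90, -3.31 and -1.81, with a log2 fold change of -2.03 ± 1.09 (adjusted p = 0.254). All 3 lay apart from the MCD arrays, which are on another slide, as did Lgals3. How many of all genes lay apart was not counted. Lgals3 was at 3.11, 2.59, 2.31 and 3.54 and differed from MCD by -1.14 ± 0.65 (adjusted p = 0.287). For Lpl, at 1.25, 0.96, 0.64 and 1.90, the log2 fold change was -1.01 ± 0.38 (adjusted p = 0.0976), called with median centring or with the mean of its probes (-1.33 and -1.7, adjusted p = 0.0423 and 0.026). For Cd9, Spp1 and Ctsd it was 0.24, -0.26 and -0.36. In a fit of these 8 arrays alone, 4 markers were called: Tyrobp, Mmp12, Trem2 (adjusted p = 0.0253) and Itgax (adjusted p = 0.045).

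Within the slide of the treated mice, 0 of the 10 markers were called between M+Fc-GLP-1 and C+Fc-GLP-1 livers before PH by limma over all groups, against 10.6% of all genes in either direction, and 3 were under an unadjusted p of 0.05. Gpnmb came nearest, at 3.24 ± 1.09 (adjusted p = 0.0529, at least 3.81-fold), followed by Trem2, at 2.03 ± 0.76 (adjusted p = 0.0847) and by Mmp12, which was not well above background on any of these 8 arrays, so that no fold is given. Gpnmb was called with a replicate block (adjusted p = 0.036) and with an intensity trend and robust settings (adjusted p = 0.0495). In the fit of these 8 arrays alone, 4 were called higher in M+Fc-GLP-1 livers: Gpnmb (adjusted p = 0.00154), Trem2 (0.00887), Mmp12 (0.0121) and Lgals3 (0.0383). Tyrobp was lower in value, at -0.80 ± 0.48 (adjusted p = 0.308). Whether the diet effect differs with the drug was tested as an interaction, in which an additive slide difference cancels. It called 1 of 10 markers, Tyrobp, at -3.49 ± 0.67 (adjusted p = 0.0045), against 2.95% of all genes called lower. An interaction below 0 can come from higher values with the drug on chow as well as from lower values with it on MCD. The median marker difference with the drug was 0.81 on chow and -1.22 on MCD. All 10 markers had interactions below 0, with a median of -2 against 0.09 over all genes. That of Trem2 was -2.65 ± 1.07 (adjusted p = 0.134), that of Itgax -2.05 ± 0.86 (adjusted p = 0.149) and that of Lgals3 -2.02 ± 0.91 (adjusted p = 0.182). Centring on the array median called 4 (with Trem2, Itgax and Lpl), and the fit of these 16 arrays alone called 5 (with Trem2, Itgax, Lgals3 and Spp1).

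After PH, single arrays stood apart in the markers. Replicate 1 of C after PH was the highest of its group in 10 of 10 markers, with a median gap of 3.60 to the mean of the other 3 arrays. Replicate 1 of C+Fc-GLP-1 was the highest in 10 of 10 (median gap 1.49) and replicate 4 of M+Fc-GLP-1 in 8 of 10 (median gap 1.97). On the same arrays some other cell type lists were also high. The monocyte list was at a mean level of 4.00 in that C liver against 0.41 to 1.27 in the other C livers, at 2.86 against 0.91 to 1.37 in the C+Fc-GLP-1 liver, and at 1.76 against 0.68 to 1.08 in the M+Fc-GLP-1 liver. Stellate cell and fibroblast genes were at 2.46, 2.32 and 1.91 against at most 1.51, 1.07 and 1.06, and bile duct genes at -0.13, 0.27 and 1.07 against at most -1.29, -1.07 and -1.06. Hepatocyte genes were the lowest of their group on all 3 arrays, at 7.91, 8.55 and 8.39. The shares of probes well above background were 52.7%, 55.2% and 55.2%, within the range of the series. The part of these in the markers was not tested, and marker differences after PH that these arrays moved are given with and without them below.

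**Figure D3:**
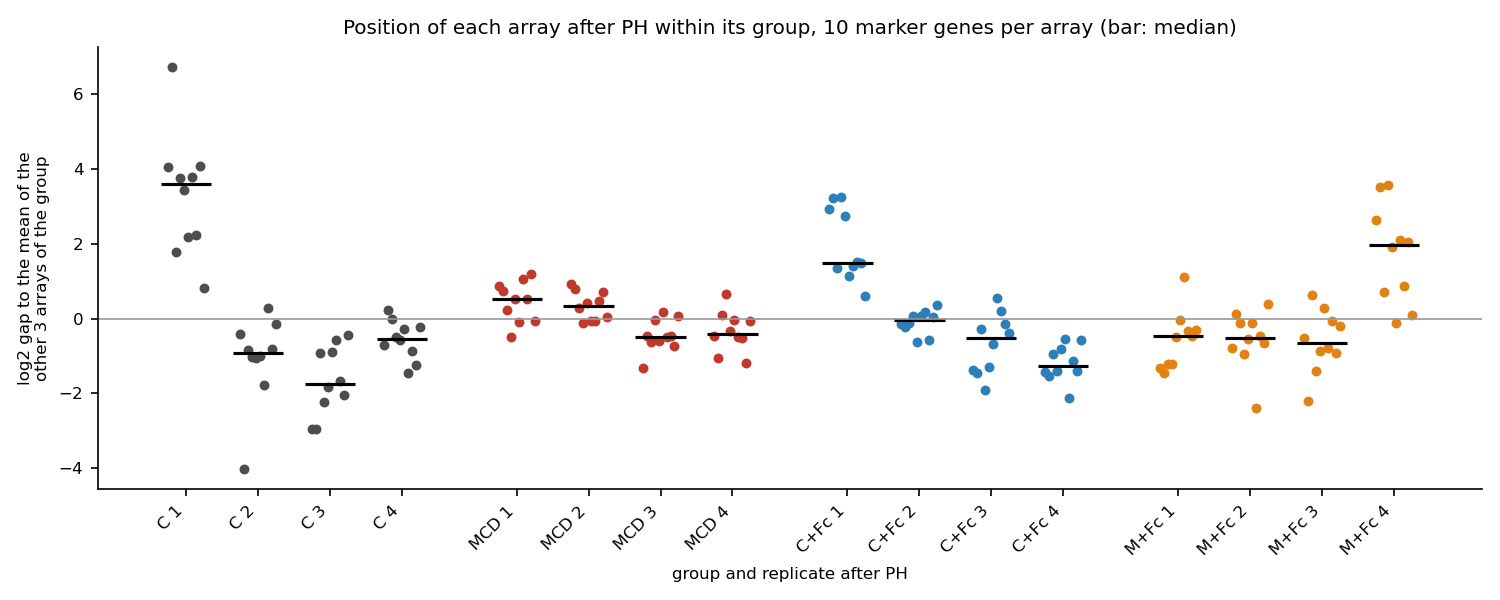
Gap of each array after PH to the mean of the other 3 arrays of its group, on the log2 scale (y axis), with 1 point per marker and a bar at the median, for the 4 groups and their replicates (x axis). Replicate 1 of C sits highest with a median of 3.60, replicate 1 of C+Fc-GLP-1 is at 1.49 and replicate 4 of M+Fc-GLP-1 at 1.97, whereas the medians of the MCD arrays lie between -0.48 and 0.52.

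Untreated chow livers 2 weeks after PH had 6 of the 10 markers higher than before PH, against 6.27% of all genes called higher. Lpl, which rose 6-fold, was at 5.83, 3.43, 3.52 and 3.98 after PH and at 1.36, 1.51, 1.78 and 1.76 before, a difference of 2.59 ± 0.38 (adjusted p = 0.000101). Tyrobp was at 5.99, 4.53, 3.07 and 3.67 after PH and rose by 2.65 ± 0.48 (adjusted p = 0.000696). Both genes had no overlap with the livers before PH. Trem2 was at 4.20, 0.85, -1.07 and 0.62, a spread of over 5 log2 units, and rose by 2.93 ± 0.76 (adjusted p = 0.0106). Lgals3 was at 6.36, 2.69, 1.77 and 2.37 (difference 2.54 ± 0.65, adjusted p = 0.0095), Itgax at 2.20, -1.16, -1.76 and -0.81 (1.83 ± 0.61, adjusted p = 0.0428) and Cd9 at 4.93, 2.96, 2.90 and 3.59 (1.70 ± 0.48, adjusted p = 0.0177).

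The array that stood apart bore on 4 of these calls. Without replicate 1 of C after PH, 2 of the 6 calls were left, Lpl at 2.04 (adjusted p = 0.00035) and Tyrobp at 2.09 (adjusted p = 0.00491). The log2 fold changes of Trem2, Lgals3, Cd9 and Itgax were then 1.92, 1.52, 1.25 and 0.97, with adjusted p from 0.0557 to 0.25. Without replicate 2 of C after PH, 8 markers were called, with Gpnmb and Mmp12 added. Itgax was also lost with normexp and quantile normalization (1.10, adjusted p = 0.18), with no filter on dim probes (adjusted p = 0.0615), and without any 1 of the C arrays before PH or without replicate 4 after PH, Cd9 without replicate 1 before PH, and Mmp12, well above background on 1 of 4 C arrays at either time, was added without replicate 2 before PH or replicate 4 after PH (adjusted p = 0.0414 to 0.0879). Spp1 was at 5.75, 2.17, 1.25 and 2.56 after PH, and its difference of 1.34 ± 0.75 (adjusted p = 0.236) was 0.40 without replicate 1.

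Lpl was the marker that separated the times in every group. MCD livers were at 4.32, 4.34, 4.52 and 4.35 after PH, against 2.21, 1.52, 2.16 and 2.90 before, higher by 2.18 ± 0.38 (adjusted p = 0.000481). It was the only 1 of the 10 markers called there, against 5.86% of all genes called higher. M+Fc-GLP-1 livers were at 4.16, 4.10, 4.41 and 4.11 after PH and rose by 3.01 ± 0.38 (adjusted p = 4.45e-05), 8.04-fold, again 1 of 10, against 0.826% of all genes. C+Fc-GLP-1 livers were at 4.22, 3.42, 2.85 and 2.96 after and 1.64, 2.14, 2.26 and 1.64 before, with no overlap. Their difference of 1.45 ± 0.38 missed the threshold (adjusted p = 0.0584), so that 0 of 10 markers were called in that group by limma, against 0.854% of all genes, with 3 under an unadjusted p of 0.05. The other two of those were Tyrobp, at 1.34 ± 0.48 with all arrays and 0.96 without replicate 1 after PH, and Mmp12, which was well above background on 0 of 4 arrays before and 2 of 4 after PH, so that no fold is given. In M+Fc-GLP-1 livers the rise of Lpl was 3.03 without replicate 4 after PH (adjusted p = 0.000235). Without replicate 1 of C+Fc-GLP-1 after PH the difference of Lpl was 1.16 (adjusted p = 0.222).

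In MCD livers none of the 6 markers that the diet had raised was called between the times. Trem2 was at 2.42, 2.46, 0.78 and 1.42, below every MCD liver before PH, but its difference of -1.12 ± 0.76 was not called (adjusted p = 0.385). Differences between the times were 0.89 for Gpnmb, 0.36 for Lgals3, -0.49 for Itgax, -0.06 for Tyrobp and -0.0049 for Mmp12, with adjusted p from 0.67 to 0.998. Spp1, at 0.89, 1.18, 1.24 and 1.76, lay below every MCD liver before PH (difference -1.13 ± 0.75, adjusted p = 0.378), and was called in the fit of these 8 arrays alone (adjusted p = 0.0154). In M+Fc-GLP-1 livers Tyrobp, at 3.17, 3.07, 3.37 and 4.06 after PH, lay above every liver before PH (difference 1.10 ± 0.48, adjusted p = 0.242, and 0.88 without replicate 4 after PH). The interaction of diet and time under Fc-GLP-1 called 0 of 10 markers by limma, against 0.0902% of all genes, and 2 were under an unadjusted p of 0.05: Lpl at 1.56 ± 0.53 (adjusted p = 0.306) and Ctsd at 0.72 ± 0.32 (adjusted p = 0.472). Without replicate 1 of C+Fc-GLP-1 after PH these were 1.85 and 0.86, and without replicate 4 of M+Fc-GLP-1 after PH 1.59 and 0.69.

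**Figure D4:**
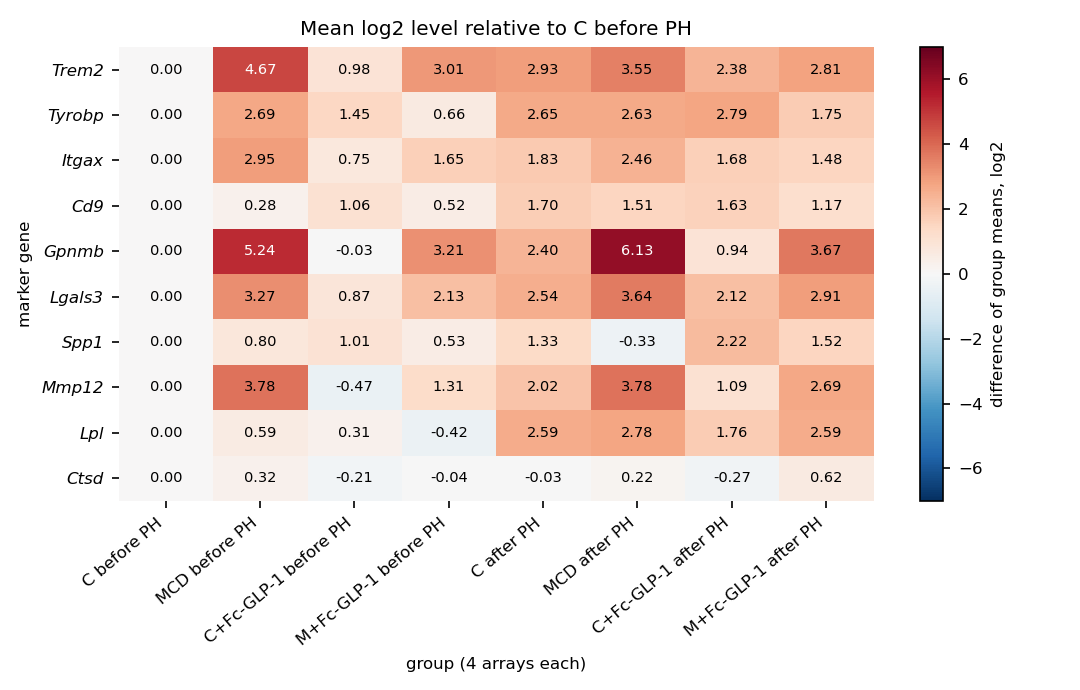
Mean log2 level of each marker (rows) in each group of 4 arrays (columns), as the difference from C before PH, from blue (lower) to red (higher). Trem2, Gpnmb, Lgals3, Mmp12, Itgax and Tyrobp are red in both MCD columns. Lpl is red in the 4 columns after PH, as are other markers, among them Tyrobp and Cd9.

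Between the diets after PH, 1 of the 10 markers was called in untreated livers, Gpnmb, against 6.51% of all genes called higher. Gpnmb was at 1.07, 1.12, 0.17 and -0.26 in MCD livers and at 1.83, -6.22, -5.42 and -3.03 in C livers, where 2 of 4 arrays were well above background, a difference of 3.74 ± 1.09 (adjusted p = 0.0221). Replicate 1 of C lay above every MCD liver in all 10 markers. Without it 4 markers were called higher in MCD livers: Gpnmb at 5.41 (adjusted p = 4.36e-05), Mmp12, at least 6.11-fold higher, since none of the other 3 C arrays was well above background (adjusted p = 0.00507), Lgals3 at 2.11 (adjusted p = 0.00371) and Itgax at 1.49 (adjusted p = 0.0471). With it they differed by 1.76, 1.09 and 0.63 for Mmp12, Lgals3 and Itgax. Trem2 differed by 0.62 ± 0.76 with all arrays (adjusted p = 0.663) and by 1.63 without replicate 1 (adjusted p = 0.098). The call of Gpnmb was itself lost without replicate 2 or 3 of C, or without replicate 1 or 2 of MCD (adjusted p = 0.0592 to 0.12).

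Spp1 had lower values in MCD than in C livers after PH. It was at 0.89, 1.18, 1.24 and 1.76 in MCD livers, with a log2 fold change against C of -1.67 ± 0.75 (adjusted p = 0.156), or -0.73 without replicate 1 of C. In M+Fc-GLP-1 livers it was at 2.22, 2.41, 2.06 and 5.79, above every MCD liver, but the difference of 1.85 ± 0.75 was not called (adjusted p = 0.137) and was 0.96 without replicate 4 of M+Fc-GLP-1.

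For the drug after PH, limma called 0 of the 10 markers on chow, against 2.24% of all genes in either direction, with 1 under an unadjusted p of 0.05, Lpl, at -0.83 ± 0.38 with all arrays, -0.28 without replicate 1 of C and -1.11 without replicate 1 of C+Fc-GLP-1. On the MCD diet it called 0 of 10, against 6.72% of all genes, with 2 under an unadjusted p of 0.05, Spp1 and Gpnmb. Gpnmb was at -3.04, -1.84, -3.59 and 0.70 in M+Fc-GLP-1 livers, where 3 of 4 arrays were well above background, against all 4 in MCD livers, and its log2 fold change was -2.47 ± 1.09 (adjusted p = 0.171). Trem2, at 0.03, 0.45, 0.63 and 3.01, differed from MCD by -0.74 ± 0.76 (adjusted p = 0.604). Without replicate 4 of M+Fc-GLP-1 these differences were -3.35 and -1.40, with adjusted p of 0.0684 and 0.288.

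Within the slide of the treated livers after PH, 1 of the 10 markers was called between the diets, the protease Ctsd, against 6.5% of all genes called higher. Ctsd was at 7.05, 7.57, 7.12 and 7.35 in M+Fc-GLP-1 and 6.83, 6.66, 6.10 and 5.96 in C+Fc-GLP-1 livers, higher by 0.88 ± 0.23 (adjusted p = 0.00892), or 1.85-fold, with no overlap. The call held without replicate 1 of C+Fc-GLP-1 (1.03, adjusted p = 0.00436) and without replicate 4 of M+Fc-GLP-1 (0.86, adjusted p = 0.022). It was not called with normexp, with the authors' normalized values, with the mean of its 2 probes or in the fit of these 8 arrays alone (log2 fold change 0.67, 0.68, 0.58 and 0.88, adjusted p = 0.257, 0.242, 0.113 and 0.0618). Gpnmb was higher by 2.72 ± 1.09 (adjusted p = 0.101), and without replicate 1 of C+Fc-GLP-1 by 3.53 (adjusted p = 0.0392). Without replicate 4 of M+Fc-GLP-1 it was 1.84 (adjusted p = 0.324).

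Across the 8 groups, Trem2 was highest in MCD before PH, followed by MCD after PH, M+Fc-GLP-1 before PH, C, M+Fc-GLP-1 and C+Fc-GLP-1 after PH, C+Fc-GLP-1 before PH and C before PH. Of these neighbours, MCD before and MCD after PH did not overlap, nor did C+Fc-GLP-1 after and before PH, and the other neighbours overlapped. For Itgax and Lgals3 the only neighbours without overlap were C+Fc-GLP-1 and C before PH, the lowest of the 8. The member nearest to Trem2 in pattern was Lgals3, with a mean absolute difference of 0.46 log2 units over the 7 group means relative to C before PH. Itgax and Tyrobp were each other's nearest (0.62), as were Cd9 and Spp1 (0.53), and Gpnmb was nearest to Trem2 (1.03). Among genes outside the markers, Ifi27l2b (0.36), Ttc39a (0.44), Clec7a (0.44), Atp6v0d2 (0.53) and Epdr1 (0.56) were the 5 nearest to Trem2 by the same measure. Clec7a encodes the phagocytic receptor dectin-1 and Atp6v0d2 a subunit of the proton pump that acidifies lysosomes.

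Genes of the same program outside the 10 moved with the diet before PH. The lists that follow are read against all genes, of which 12.2% were called higher and 13.7% lower for MCD against C before PH, 6.51% and 5.96% after PH, 3.76% and 2.99% for M+Fc-GLP-1 against MCD before PH, and 3.99% and 2.73% after PH. The medians over all genes were -0.07, -0.01, 0.06 and 0.06 in that order. Of 29 tested lipid-associated and lysosomal genes, 15 were higher and 2 lower in MCD than in C livers, with a median log2 fold change of 0.94. Atp6v0d2 was higher by 4.36 ± 0.70 (adjusted p = 5.15e-05) and Clec7a by 3.99 ± 0.64 (adjusted p = 5.31e-05). Under Fc-GLP-1 on MCD, 0 were higher and 4 lower, among them Lgals1, galectin-1, which fell by 1.93 ± 0.36 (adjusted p = 0.00224), and the protease Ctss, which fell by 1.73 ± 0.52 (adjusted p = 0.0419). After PH, 5 were higher and 2 lower in MCD than in C livers, with the fatty acid receptor Cd36 higher by 2.24 ± 0.41 (adjusted p = 0.000408) and the fatty acid carrier Fabp5 lower, at -1.39 ± 0.37 (adjusted p = 0.0134). Of these 29 only Cd36 was called between M+Fc-GLP-1 and MCD after PH, where it fell by 1.78 ± 0.41 (adjusted p = 0.00804). Without replicate 1 of C after PH 9 of the 29 were higher and 1 lower in MCD livers, with Cd36 and Fabp5 still called, and without replicate 4 of M+Fc-GLP-1 2 were lower under the drug. These and the other list values without single arrays were computed after seeing the data.

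Partners of the members are set against the same shares of all genes. Of 14 receptors and signalling genes that work with TYROBP, 7 were higher and 0 lower in MCD than in C livers before PH (median 1.31), led by Sirpb1a, an activating receptor, at 3.00 ± 0.58 (adjusted p = 0.000433), and Cd300lb, at least 4.85-fold higher (adjusted p = 0.000833). Under Fc-GLP-1 on MCD 4 were lower, with Cd300lb at -2.03 ± 0.60 and Sirpb1a at -2.02 ± 0.58 (adjusted p = 0.0391 and 0.0359), and none was called after PH in either of those comparisons with all arrays, whereas 3 were higher in MCD livers without replicate 1 of C. Of 10 osteopontin receptors and integrin partners, 2 were higher and 1 lower before PH, against 12.2% and 13.7% of all genes, with Itga4 at 2.24 ± 0.45 (adjusted p = 0.000689) and Itgb2, the chain that pairs with ITGAX, at 1.5 ± 0.46 (adjusted p = 0.0172). Itgb2 fell under Fc-GLP-1 on MCD by 1.80 ± 0.46 before PH (adjusted p = 0.0193) and by 1.65 ± 0.46 after PH (adjusted p = 0.0294), and Itgb3 was higher in MCD than in C livers after PH by 1.67 ± 0.32 (adjusted p = 0.00075). Itgb2 and Itgb3 after PH stayed called without replicate 4 of M+Fc-GLP-1 (-1.91) and replicate 1 of C (1.93).

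Of 14 partners and regulators of lipoprotein lipase, 1 was higher and 3 lower in MCD than in C livers before PH, against the same 12.2% and 13.7%. The lipoprotein receptor Vldlr was higher by 1.77 ± 0.50 (adjusted p = 0.00924), and Lmf1, a factor needed to fold the enzyme, was lower, at -1.74 ± 0.22 (adjusted p = 1.83e-06). After PH 4 were higher and 2 lower, with the LPL inhibitor Angptl4 higher by 1.88 ± 0.46 (adjusted p = 0.00681) and hepatic lipase, Lipc, lower, at -2.41 ± 0.35 (adjusted p = 2.83e-05). Under Fc-GLP-1 on MCD, Apoa5, an activator of the enzyme, was the only 1 called before PH, higher by 1.42 ± 0.32 (adjusted p = 0.00963), and 0 were called after PH. Of 11 tetraspanins and galectins other than the members, 3 were higher before PH in MCD livers, with the leukocyte tetraspanin Cd53 at 2.46 ± 0.55 (adjusted p = 0.00164), and 2 were higher and 1 lower after PH, with Lgals4 at 2.08 ± 0.43 (adjusted p = 0.00185) and Tspan4 at 1.17 ± 0.25 (adjusted p = 0.00236). Under Fc-GLP-1 on MCD, Lgals1, given above, fell, and Lgals4 rose by 1.39 ± 0.43 before PH (adjusted p = 0.0489), and Cd37 fell by 0.94 ± 0.27 after PH (adjusted p = 0.0319). The call of Cd37 was lost without replicate 4 of M+Fc-GLP-1 (adjusted p = 0.0632).

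Markers of other cell types moved beside the 10 genes. In MCD against C livers before PH, 10 of 14 monocyte genes were higher and 1 lower (median 1.79), with Chil3 at 4.33 ± 0.88 (adjusted p = 0.000712) and Ccl2 at 2.56 ± 0.86 (adjusted p = 0.0279). Of 14 genes of resident Kupffer cells 8 were higher and 2 lower (median 1.26), with the complement receptor Vsig4 at 2.36 ± 0.42 (adjusted p = 0.000173) and complement C6, which hepatocytes also make, at -2.87 ± 0.32 (adjusted p = 4.8e-07). Dendritic cell genes were higher in 6 of 9 (median 1.44), with Cd209a at 2.37 ± 0.49 and Clec9a at 2.33 ± 0.36 (adjusted p = 0.00077 and 3.65e-05). Neutrophil genes were higher in 4 of 12 (median 1.43), with Lcn2, which hepatocytes also secrete, at 5.14 ± 0.87 and S100a8 at 3.11 ± 0.68 (adjusted p = 9.25e-05 and 0.00126). Stellate cell and fibroblast genes were higher in 5 of 11 (median 1.02), with Timp1 at 3.66 ± 0.84 and Lrat at 1.93 ± 0.31 (adjusted p = 0.00214 and 5.59e-05). The monocyte list ranged from -0.28 to -0.15 in mean level in C and from 1.06 to 1.92 in MCD livers, and the Kupffer cell list from 2.23 to 2.83 and from 2.75 to 4.02. Of the remaining lists, hepatocyte genes were lower in 2 of 9 (Apoa1 and Ass1, at -1.08 ± 0.21 and -0.64 ± 0.22, adjusted p = 0.000483 and 0.0316), and the medians lay between -0.29 and 0.25 for B and plasma cells (2 higher, 1 lower of 7), T and NK cells (2 and 2 of 9), bile duct cells (1 and 0 of 9), endothelial cells (1 and 0 of 8) and mesothelium (1 and 0 of 5).

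**Figure D5:**
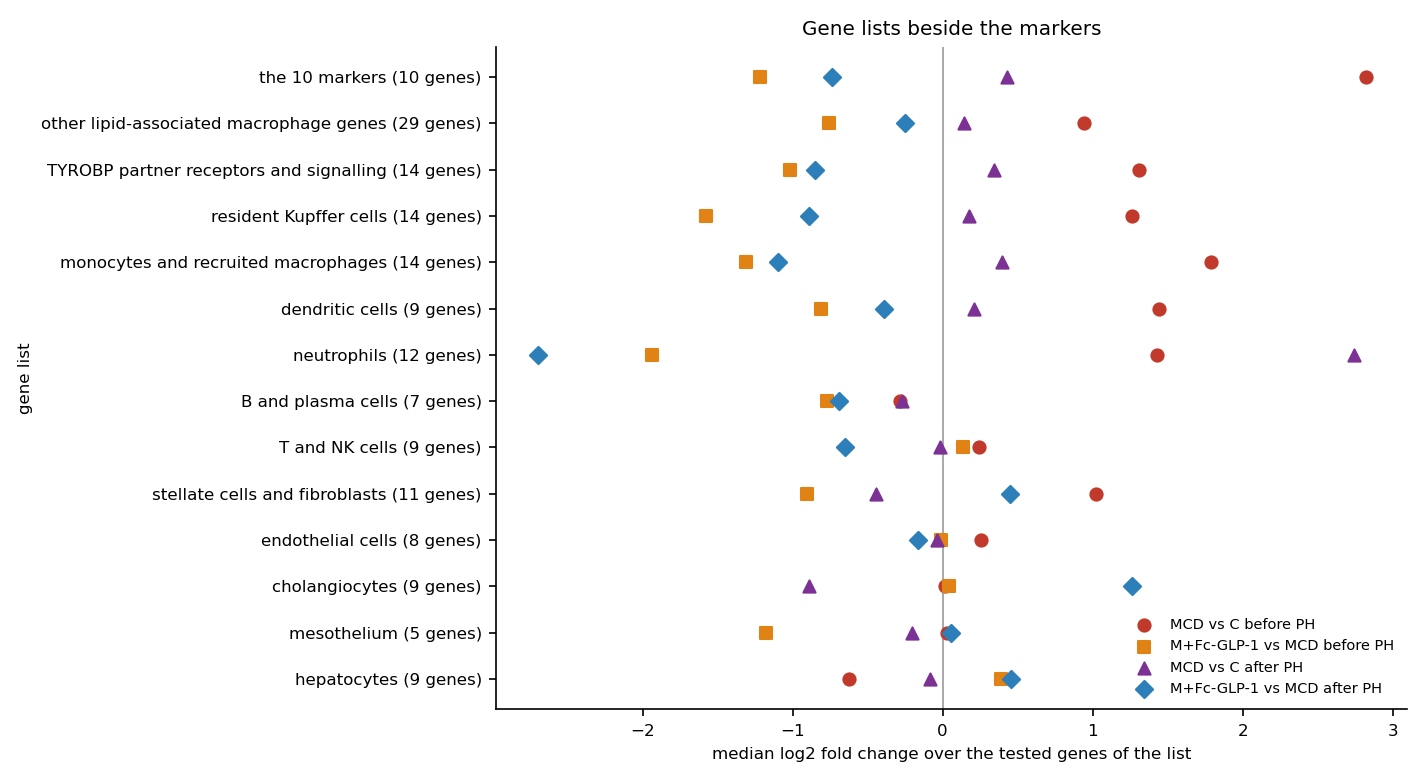
Median log2 fold change over the tested genes (x axis) of the 10 markers and 13 other gene lists (rows), for 4 comparisons marked by shape and colour. The 10 markers have the highest median in MCD against C before PH, at 2.82, while neutrophil genes have the highest in MCD against C after PH, at 2.74, where the 10 markers are at 0.43.

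Under Fc-GLP-1 on the MCD diet before PH, 7 of 14 Kupffer cell genes were lower (median -1.58), with Folr2 at -2.87 ± 0.44 (adjusted p = 0.000345) and Cd5l at -1.88 ± 0.41 (adjusted p = 0.00772). Monocyte genes were lower in 4 of 14 (median -1.31), with Ms4a7 at -2.57 ± 0.64 and Lyz2 at -1.85 ± 0.56 (adjusted p = 0.0162 and 0.0427), and neutrophil genes in 3 of 12 with 1 higher (median -1.94), with Lcn2 at -4.20 ± 0.87 and S100a8 at -3.05 ± 0.68 (adjusted p = 0.00524 and 0.00828). Dendritic cell genes were lower in 3 of 9, with Batf3 at -1.59 ± 0.43 and Ccr7 at -1.38 ± 0.36 (adjusted p = 0.027 and 0.0207), stellate cell genes in 2 of 11, with Col3a1 at -2.03 ± 0.46 (adjusted p = 0.00925), and B and plasma cell genes in 2 of 7, with Jchain at -5.33 ± 0.64 and Mzb1 at -1.73 ± 0.42 (adjusted p = 2.17e-05 and 0.0142). No gene of the T and NK cell, bile duct, endothelial, mesothelial or hepatocyte lists was called there. The part of any of these cell types in the values of the 10 markers was not tested.

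After PH, neutrophil genes were called both between the diets and with the drug. Between MCD and C livers 7 of 12 neutrophil genes were higher and 0 lower (median 2.74), with Lcn2 at 3.23 ± 0.87 and S100a8 at 3.03 ± 0.68 (adjusted p = 0.0134 and 0.00332), against 1 of 14 monocyte genes higher (median 0.40) and 2 of 14 Kupffer cell genes lower, C6 and Id3, at -3.35 ± 0.32 and -1.67 ± 0.32 (adjusted p = 5.34e-08 and 0.000671). Stellate cell genes were lower in 3 of 11, with Col3a1 at -2.08 ± 0.46 and Col1a2 at -1.25 ± 0.42 (adjusted p = 0.00305 and 0.0498), and T and NK cell genes higher in 2 of 9, Klrb1c at 2.14 ± 0.44 and Il2rb at 0.95 ± 0.31 (adjusted p = 0.00171 and 0.0408). Between M+Fc-GLP-1 and MCD livers 9 of 12 neutrophil genes were lower (median -2.70), with S100a8 at -3.58 ± 0.68 and S100a9 at -2.89 ± 0.61 (adjusted p = 0.00183 and 0.00491). Monocyte genes were lower in 2 of 14, with Lyz2 at -2.12 ± 0.56 (adjusted p = 0.0215), Kupffer cell genes in 2 of 14, with Adgre1 at -2.18 ± 0.59 (adjusted p = 0.025), and B and plasma cell genes in 2 of 7, Jchain at -3.39 ± 0.64 and Mzb1 at -1.61 ± 0.42 (adjusted p = 0.00189 and 0.0205). Epcam, a bile duct gene, was higher by 2.79 ± 0.62 (adjusted p = 0.00716), the sinusoidal gene Clec4g lower, at -1.06 ± 0.33, and the urea cycle gene Ass1 higher by 0.71 ± 0.22 (both adjusted p = 0.0472).

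The arrays that stood apart moved several of these counts. Without replicate 1 of C, whose stellate cell list was at 2.46 against 0.36 to 0.97 in the MCD livers, 2 stellate cell genes were lower and 1 higher in MCD livers, with Col3a1 at -1.63 (adjusted p = 0.0139) and Col1a2 at -0.71 (adjusted p = 0.223). Neutrophil genes were again higher in 7 of 12, monocyte genes in 3 of 14 and Kupffer cell genes in 2 of 14, with 2 lower, and 3 of 7 B and plasma cell genes were lower. Without replicate 4 of M+Fc-GLP-1, whose bile duct list was at 1.07 against -1.76 to -1.06 in the other arrays of its group, Epcam was higher by 1.95 (adjusted p = 0.0317). Neutrophil genes were then lower in 5 of 12 (median -2.49), with S100a8 at -3.29 (adjusted p = 0.00852), monocyte genes in 3 of 14 and Kupffer cell genes in 0 of 14, with Adgre1 at -2.12 (adjusted p = 0.0511), by limma in each case. Clec4g was at -0.99 (adjusted p = 0.0947), and Jchain, Mzb1, Lyz2 and Ass1 stayed called.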

How the data were processed

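Total liver RNA was labelled with Cy3 and hybridized to 1-colour arrays of 62976 spots. The authors deposited the intensity values that Agilent Feature Extraction 10.7.3.1 made for each array, background corrected and on a linear scale per the file headers, and a table of normalized log2 values, whose columns each correlated best with their own array (32 of 32). The submitters' processing notes and the paper name limma. Here log2 of the processed intensity was averaged over the unflagged spots of a probe and centred on the array's 75th percentile over 55681 probes. Kept were the 28937 probes that some group measured well above background in all 4 of its arrays. The brightest kept probe stood for a gene, named through RefSeq accessions where it had one (27656 probes). Probes with all spots left out on at least 1 array (426) were dropped.

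Group means of all 32 arrays were fitted with limma 3.58.1 (R 4.3.3) by lmFit and eBayes (24 residual degrees of freedom before moderation), with Benjamini-Hochberg adjustment over 21073 genes and a threshold of 0.05, in 12 comparisons between groups and 2 interactions. The markers, gene lists and tests were chosen with earlier results of these data known. Named were the 10 markers, the 2 called genes with the largest change and no overlap in each of 16 other lists in 4 comparisons, and the nearest genes in pattern. Comparisons share control arrays and are not independent. Bounds set a signal against the lowest one well above background. The alternatives were normexp (offset 50) with quantile normalization, centring on the median or on a percentile over the 17894 probes well above background on every array, the authors' values, the unfiltered set of probes, a gene's mean over its probes, only the groups compared, a replicate block, an intensity trend with robust settings, each array left out and, added after seeing the data, gene lists without single arrays after PH. Simulated data had 50 of 21073 genes changed by each of 1, 2, 3 and 4 on the log2 scale in MCD against C before PH. Of these changes 26%, 90%, 98% and 100% were recovered, with 9 calls among unchanged genes. The simulated noise was independent between arrays, with 1 spread per gene in all groups and no arrays that stood apart. These shares therefore do not carry over to the markers, whose spread differed between groups. No 2 arrays held identical values. Figures were drawn with matplotlib 3.10.9. With 4 arrays per group, their number limits the precision. Tissue stains, proteins and qPCR were not analysed here.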

Additional observations from a re-analysis of the deposited data

Results flagged for a closer look

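Single arrays lay far from the others of their group of 4 in 9 of the 80 sets of a marker and a group. Chance gives about 1 in 20 for a single set. The sets share arrays, and the same array recurs among the 9, so they are not independent and their number is not a test. The gap of the extreme array to its neighbour, as a share of the range, was 0.9 for Trem2 in C before PH, 0.884 for Tyrobp and 0.932 for Ctsd there (replicate 2 the highest in each, at -0.83, 1.95 and 7.03). It was 0.874 for Lgals3 in MCD before PH (replicate 4, 4.91) and 0.888 for Ctsd in C+Fc-GLP-1 before PH (replicate 4 the lowest, 6.04). After PH it was 0.834 for Itgax in C+Fc-GLP-1 (replicate 1, 1.52), and in M+Fc-GLP-1, with replicate 4 the highest, 0.908 for Spp1 (5.79), 0.863 for Itgax (0.70) and 0.845 for Lgals3 (5.19).

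The diet effect on Tyrobp before PH differed with Fc-GLP-1 by -3.49 on the log2 scale (adjusted p = 0.0045): MCD livers were above C livers without the drug, and M+Fc-GLP-1 livers were not above C+Fc-GLP-1 livers. In another 3 cases every array of a group moved against its control mean in opposite ways under the same contrast, and the difference was not tested. Trem2 after against before PH was at 2.93 in C and -1.12 in MCD mice. Itgax was at 1.83 in C and -0.49 in MCD mice in that contrast. Spp1 in MCD against C was at 0.80 before and -1.67 after PH. The after-PH values of C in these contrasts include replicate 1, without which they are 1.92 for Trem2 and 0.97 for Itgax in C, and -0.73 for Spp1 after PH, and their slides differ.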

How the results depend on the processing

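The 6 calls in MCD against C before PH, and the calls of Lpl between the times in C, MCD and M+Fc-GLP-1, held under every alternative run for them, as did the 0 calls for Fc-GLP-1 after PH on either diet and for diet by time. The number of members called rose from 0 to 1 for C+Fc-GLP-1 against C before PH with normexp, with median centring and with the authors' values. For M+Fc-GLP-1 against MCD before PH the 2 calls became 1 with the authors' values and 4 with only the groups compared. For M+Fc-GLP-1 against C+Fc-GLP-1 before PH the 0 calls became 1 with a replicate block and with a trend, and 4 with only the groups compared. The interaction went from 1 to 4 with median centring and 5 with only the groups compared. MCD against C after PH went from 1 to 0 with normexp and with only the groups compared. M+Fc-GLP-1 against C+Fc-GLP-1 after PH went from 1 to 0 with normexp, the authors' values, the mean over probes and only the groups compared. With only the groups compared, C after against before PH went from 6 to 2 and MCD from 1 to 2. C+Fc-GLP-1 after against before PH went from 0 to 1 with normexp, the percentile over bright probes, no filter and a trend. Without 1 array the counts ranged from 1 to 2 for M+Fc-GLP-1 against MCD before PH, from 0 to 4 for MCD against C after PH, from 1 to 2 for M+Fc-GLP-1 against C+Fc-GLP-1 after PH, and from 2 to 8 for C after against before PH. No called value changed sign. The largest shift of the median of all genes was 0.62 with median centring, 0.38 without the filter, 0.15 with the percentile over bright probes and 0.12 with the authors' values. The authors' values were not used between times, because the table appears normalized within each time. The replicate numbers were not taken to pair the arrays, because no label names a mouse, although titles repeat between the times in some groups. Of 112 pairs with the same number in different groups, 19 had deviations that correlated above 0.1 (from -0.22 to 0.516, median 0.01). These pairs include groups that differ in diet or treatment, which cannot share a mouse. The check therefore cannot decide whether livers before and after PH were paired. By the same measure, 18 of 32 arrays matched an array of their own number best, a hint from the data and not from the design. Beyond the 1 call for Gpnmb above (log2 fold change 3.24, adjusted p = 0.036), the replicate block changed no call. Gpnmb and Mmp12 were well above background on 18 and 15 of 32 arrays, so their low levels are bounds set by the background. The causes of these changes were not tested.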

Other observations

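Of the 3 markers with 2 probes, Lpl and Ctsd had both kept. The dimmer Lpl probe was at -0.50, -0.34, 0.33 and 0.12 in C livers before PH and 3.61, 0.58, 1.29 and 2.30 after PH, at 0.81, 0.03, 0.21 and 1.35 in MCD livers before and 2.37, 2.16, 2.57 and 2.82 after, and at -1.23, -1.99, -3.74 and -0.22 in M+Fc-GLP-1 livers before and 1.87, 2.54, 2.68 and 2.93 after, higher after PH with no overlap in each group, as with the brighter probe. The dimmer Ctsd probe was at 2.41, 2.61, 1.62 and 2.27 in M+Fc-GLP-1 and 1.78, 1.99, 1.91 and 2.16 in C+Fc-GLP-1 livers after PH, which overlap, unlike the brighter probe. Before PH it was at 3.00, 1.04, 1.52 and 1.28 in C and 1.55, 3.24, 2.89 and 2.83 in C+Fc-GLP-1 livers. The other Mmp12 probe was well above background on 0 of 32 arrays.

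Before PH, replicate 4 of the MCD livers was the highest of its group in 8 of 10 markers and replicate 2 of the C livers in 7 of 10, with median gaps to the other 3 arrays of 0.86 and 0.57. Leaving out either array kept 6 calls in MCD against C before PH.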
